A study of Homo sapiens with 5 samples.

Results

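DNase-seq peaks over the immunoglobulin loci were described in 5 human cell lines of B lymphoid malignancies. The members were all listed peaks that overlapped chromosome 14 from 105.00 to 106.36 Mb (the heavy chain locus, IGH), chromosome 2 from 88.90 to 90.00 Mb (the kappa light chain locus, IGK) or chromosome 22 from 20.70 to 21.70 Mb (the lambda light chain locus, IGL), all in hg18. They numbered 304 of 109231 peaks on chromosomes 1 to 22 and X, with 136 in IGH, 76 in IGK and 92 in IGL. Joined across lines where they shared at least 1 bp, they formed 220 of 59212 merged regions. L1236, L428 and L591 are Hodgkin lymphoma lines, Reh is a pro-B lymphoblastic leukaemia line and Namalwa a Burkitt lymphoma line, and the labels class both of these as non-Hodgkin. Every line was used at passage 7, and DNase I was titrated for each line, to 12 U/ml for L591 and Namalwa and to 6 U/ml for the other lines. Each line gave 1 library and 1 peak list, so differences between lines have no error within a line and the lines of a group are its replicates.

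DNase I cuts where chromatin is open, and the listed peaks are the stretches where released fragments piled up. B cells build an antibody by joining V, D and J segments of the heavy chain locus and V and J segments of a light chain locus, and the joined V segment is then transcribed with a constant region. Accessibility of the loci is needed both for this recombination and for transcription. An intronic enhancer lies between the J segments and the constant regions of IGH, and a 3′ regulatory region lies downstream of each of the alpha constant genes, IGHA1 and IGHA2. IGK and IGL have enhancers downstream of their constant regions. Pro-B cells recombine the heavy chain first, germinal centre B cells such as those that give rise to Burkitt lymphoma express a complete antibody, and the tumour cells of Hodgkin lymphoma usually have lost immunoglobulin expression.

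Along the chromosomes, IGH and IGK run from their constant regions at the low coordinates to the V segments at the high coordinates, and IGL runs the other way. In the RefSeq gene order of GRCh38.p14 the first IGH segment is IGHA2, the first IGK segment is IGKC and the last IGL segment is IGLC7. That annotation lists 48 V segments, 27 D segments, 6 J segments and 9 constant regions in IGH, 44 V segments in IGK and 37 V segments in IGL, not counting pseudogenes. Protein-coding genes of other kinds lie next to these segments. CRIP1, TEDC1 and TMEM121 precede IGHA2, and VPREB1, which encodes part of the surrogate light chain of early B cells, lies among the IGL V segments with ZNF280B, ZNF280A, PRAME and GGTLC2. No hg18 annotation was used here, so no peak was assigned to a gene, segment or enhancer, and the cell type of the lines was not checked against marker genes.

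The Namalwa list, with 5760 peaks, was far shorter than the others, which ran from 23288 peaks in L428 to 27925 in Reh. Read depth is unknown. Of the Namalwa peaks, 98.4% overlapped a Reh peak, as did 20 of the 21 Namalwa peaks in the immunoglobulin loci, so the non-Hodgkin lines are not shown to be independent and results are also given with 1 of them left out. The L1236 list lacks the trimming mark that the other 4 carry. Both the constant region unit of IGH and the V segments of IGK exist as near-identical copies, and how reads matching several places were treated is not given in the sources used here, so a peak in 1 copy may hold reads of the other. Recombination and class switching delete parts of these loci in B cells, and absence of a peak and absence of the DNA cannot be told apart here.

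Reh devoted the largest share of its list to the immunoglobulin loci. It had 154 peaks there (0.551% of its list, exact 95% interval 0.468 to 0.645), and Namalwa had 21 (0.365%, 0.226 to 0.557). L1236 had 58 (0.226%, 0.172 to 0.292), L591 had 39 (0.147%, 0.104 to 0.200) and L428 had 32 (0.137%, 0.0940 to 0.194). Both non-Hodgkin lines lay above all 3 Hodgkin lines. The Hodgkin mean was 0.170% ± 0.0488 (SD, n = 3) and the non-Hodgkin mean 0.458% (n = 2), a difference of -0.288 percentage points. Permuting the group labels exactly, two-sided, over all 10 ways to divide the lines gave p = 0.1, the smallest the design allows, and an adjusted p of 0.167 (Benjamini-Hochberg over 5 tests), so the difference did not pass 0.05. Intervals are Clopper-Pearson, take each peak as an independent draw and cover counting error only. Of the 154 Reh peaks, 55.2% lay in runs of 5 or more with gaps of at most 10 kb (25.7% of its list). The intervals may therefore be too narrow. For the 3 loci together the order of the groups held at both DNase I doses, with a difference of -0.370 percentage points at 6 U/ml and -0.218 at 12 U/ml. It also held without Reh (-0.195) and without Namalwa (-0.381).

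The 3 loci did not behave alike. Over the full lists only IGL separated the groups. It took 0.229% of the Reh list (64 peaks) and 0.174% of the Namalwa list (10 peaks). Each Hodgkin line had 6 peaks in IGL, or 0.0225% to 0.0258% of its list. The Hodgkin mean was 0.0239% ± 0.00167 (SD, n = 3) and the non-Hodgkin mean 0.201% (n = 2). The difference of -0.177 percentage points gave the same exact permutation p of 0.1, adjusted 0.167. Over the full lists IGH gave no such split. L1236, with 46 peaks (0.179%), stood beside Reh with 46 (0.165%) and Namalwa with 11 (0.191%), and above L428 with 18 (0.0773%) and L591 with 15 (0.0564%). The difference between group means in IGH was -0.0735 percentage points (exact permutation p = 0.3, adjusted 0.375), and -0.111 without L1236. With each list held to its 5760 highest-scoring peaks the groups did not overlap in IGH either. Reh then had 15 peaks (0.260%), Namalwa 11 (0.191%), L1236 10 (0.174%), and L428 and L591 2 each (0.0347%), a difference of -0.145 (exact permutation p = 0.2). Over the full lists IGK was mainly a Reh locus, with 44 Reh peaks (0.158%). L591 had 18 there (0.0676%), L428 8 (0.0344%), L1236 6 (0.0234%) and Namalwa none listed. The non-Hodgkin lines were thus the highest and the lowest of the 5 in IGK, and the group means differed by -0.0370 (exact permutation p = 0.8, adjusted 0.8), a sign that turned to 0.0418 without Reh. By dose the IGK difference was -0.129 percentage points at 6 U/ml and 0.0676 at 12 U/ml.

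**Figure D1:**
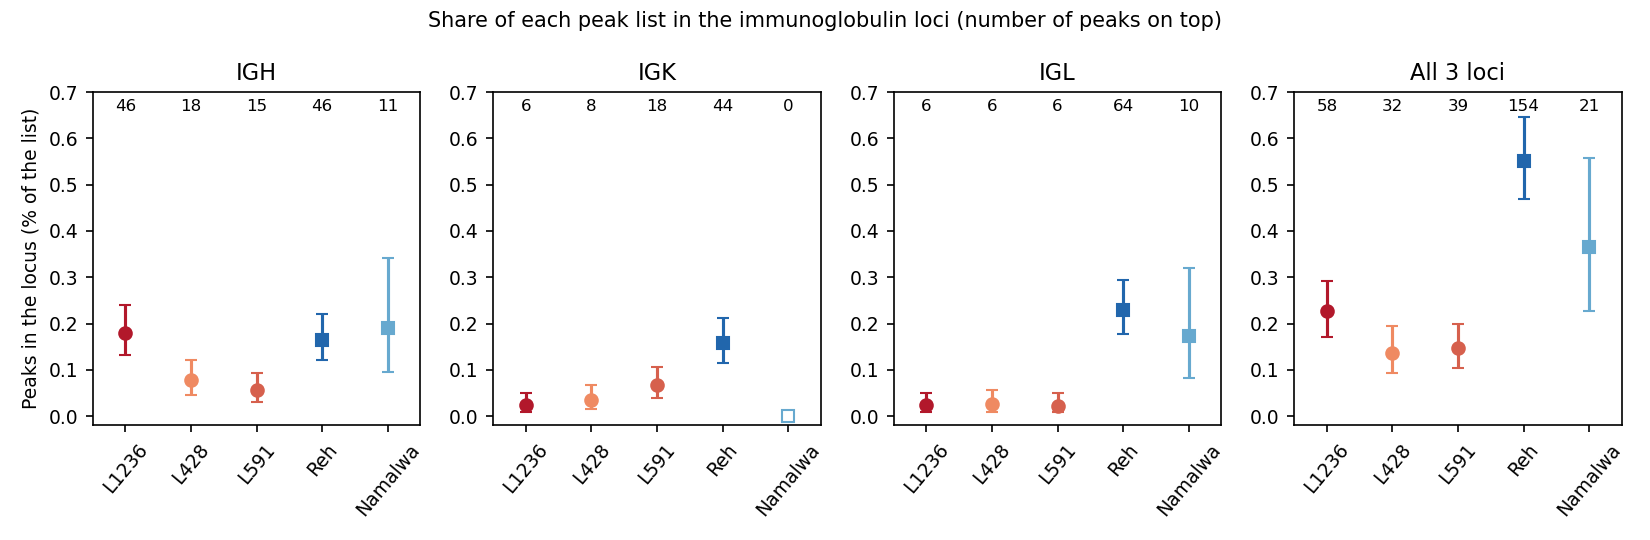
Share of each peak list, in percent, that lies in IGH, IGK, IGL and all 3 loci, with exact 95% intervals (circles, Hodgkin lines; squares, non-Hodgkin lines; open square, no peak listed) and the number of peaks above each point. In IGL the 3 Hodgkin lines sit at 0.0225% to 0.0258%, below Namalwa at 0.174% and Reh at 0.229%.

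The high density of Reh peaks did not stop at the edges of IGH and IGL. Over the whole list Reh had 9.24 peaks per Mb. It had 64 per Mb in IGL, 6.93 times the density of its list, but also 58 in the 1 Mb above the window (6.28 times) and 33 in the 1 Mb below (3.57 times). Namalwa showed the same order, with 5.25 times its own list density in IGL, 4.72 above and 2.10 below. In the 3 Hodgkin lines the density in IGL was 0.681 to 0.779 times that of the list, and 0.825 to 1.36 times in the 1 Mb above. In the 1 Mb below it was 1.18 times in L1236, 1.59 in L591 and 2.60 in L428, so that L428 exceeded Namalwa there. The Reh list was dense on chromosome 22 in general, at 1.65 times its overall density outside IGL, against 0.582 to 1.01 times in the Hodgkin lines. At IGH the density of Reh was 3.66 times that of its list within the window and 4.11 times in the 1 Mb below it, while L1236 fell from 3.99 times within to 1.18 times below. The window reaches the last peaks of chromosome 14, so IGH has no upper flank.

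IGK differed from its surroundings in another way. Reh had 40 peaks per Mb in IGK, 4.33 times its list density. In the 1 Mb below, the Reh density was 1.41 times that of the list, and in the 1 Mb above 2.27 times. On the rest of chromosome 2 it was 0.792 times. The other lines ranged in IGK from none listed in Namalwa to 1.86 times the list density in L591. No line had a peak between 89952220 and 90958791, and the 12 to 25 peaks of each line in the upper flank all lay beyond that gap. Namalwa had 22 peaks there and none in IGK.

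**Figure D2:**
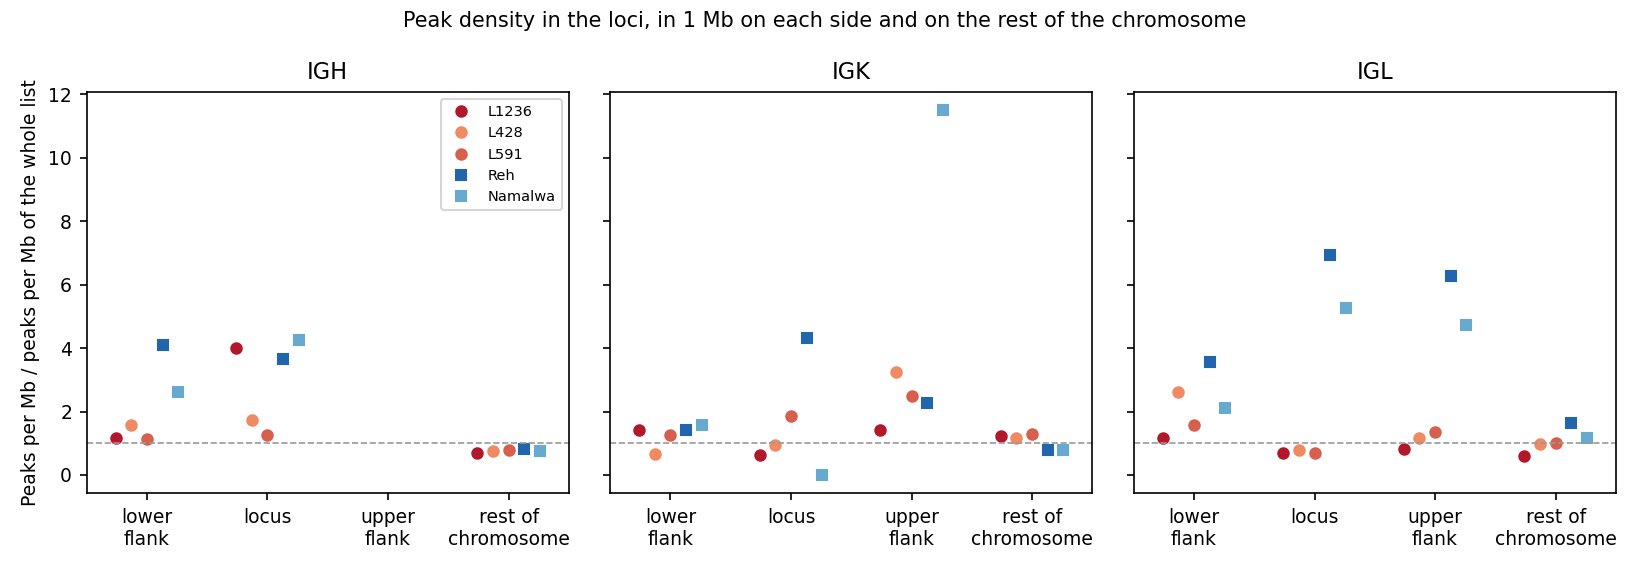
Peaks per Mb divided by peaks per Mb of the whole list, for each line, in each locus, in 1 Mb on either side and on the rest of the chromosome (flanks included). Circles are Hodgkin lines, squares non-Hodgkin lines, and the dashed line marks the density of the whole list. In IGL, Reh stands at 6.93 and in the flank above at 6.28, while the Hodgkin lines lie between 0.681 and 1.36 in both.

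Most immunoglobulin regions had a listed peak in a single line. Thresholds of the lists are unknown, so a line with no listed peak in a region is not shown to be closed there. In 170 of the 220 merged regions (77.3%) the peak came from 1 line only, against 62.9% of all merged regions. Reh alone accounted for 121 (55.0%, against 21.5% of all regions), L1236 alone for 29 (13.2%, against 19.8%), L591 alone for 13 (5.91%, against 12.5%) and L428 alone for 7 (3.18%, against 9.02%). Namalwa had none of its own, against 0.0608% of all regions. Without Reh the number of regions of 1 line was 70, and the matching share of all regions was not computed. Regions with peaks of both groups made up 10.5% (23 regions), against 21.5% overall.

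Sharing with the Hodgkin lines was low for the Reh regions of these loci. Of 154 Reh regions, 22 (14.3%) had a peak in any Hodgkin line, against 48.8% of all Reh regions. Of 21 Namalwa regions, 10 (47.6%) had one, against 87.0% of all Namalwa regions. For L1236, 20 of 54 regions (37.0%) had a peak in another Hodgkin line, against 48.1% over its list. L428 (64.5% against 71.9%) and L591 (55.3% against 64.2%) lay closer to their lists.

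**Figure D3:**
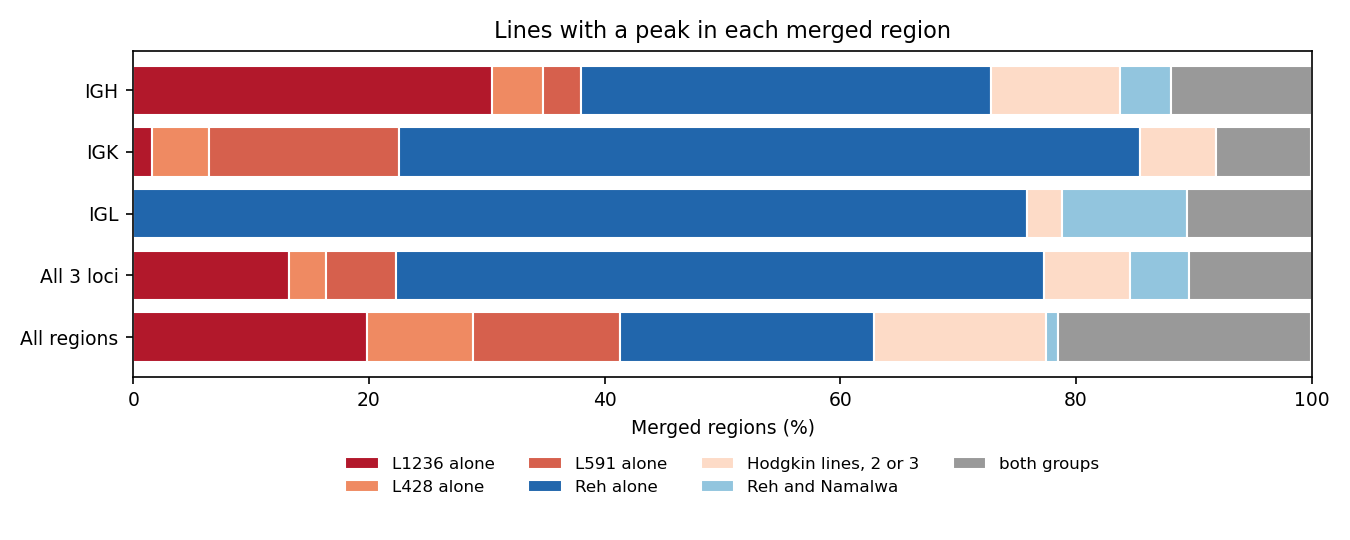
Merged regions by the lines that have a peak in them, in percent of the regions of each locus, of the 3 loci together and of all 59212 regions. Regions of Reh alone make up 55.0% in the 3 loci and 21.5% overall; regions of Namalwa alone (0.0608% overall) are not drawn.

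Hodgkin-only regions, those found in each of L1236, L428 and L591 but not in Reh or Namalwa, numbered 6 (2.73%, against 4.33% of all regions). Non-Hodgkin-only regions, with a peak in Reh and Namalwa and in no Hodgkin line, numbered 11 (5%, against 1.04%), of which 7 lay in IGL and 4 in IGH. Regions of all 5 lines numbered 2 (0.909%, against 5.12%). The excess of the non-Hodgkin-only class rests on 2 lists of which the shorter lies almost wholly in the other.

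Measured by the Jaccard index (bases shared over bases covered by either line), the lines were less alike in these loci than over their whole lists in each of the 10 pairs. L428 with L591 had 0.220 (whole lists 0.362), L1236 with L428 0.176 (0.229) and L1236 with L591 0.174 (0.228). Reh with Namalwa had 0.101 (0.176). Pairs across groups ranged from 0.0363 for L1236 with Reh (0.166) to 0.0828 for L428 with Namalwa (0.164). Over the 3 loci together every pair within a group was thus above every pair between groups, which was not so over the whole lists. By locus this held in IGL only, where Reh with Namalwa had 0.122 and L591 with Namalwa 0.12. In IGH, L428 with Namalwa (0.136) exceeded Reh with Namalwa (0.134) and L1236 with L428 (0.134). In IGK, where Namalwa had no listed peak, Reh with Namalwa had 0 and L591 with Reh 0.0632. On average over the 3 loci together, the index was 0.113 higher for pairs within a group than for pairs across groups. Exact permutation over the 10 splits gave p = 0.1 (adjusted 0.167). Over whole lists the difference was 0.0668 (same permutation, p = 0.2).

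Along IGH, Reh and Namalwa had their peaks at the end of the constant regions and the Hodgkin lines had most of theirs at the end of the V segments. The middle of the window lies at 105.68 Mb. Below it lay 37 of 46 Reh peaks (80.4%) and 10 of 11 Namalwa peaks (90.9%), against 4 of 46 in L1236 (8.70%), 6 of 18 in L428 (33.3%) and 1 of 15 in L591 (6.67%). The groups did not overlap in this share. It was looked at after the positions had been seen, and no test was made. No line had a peak in the bins from 105.40 to 105.60 Mb.

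**Figure D4:**
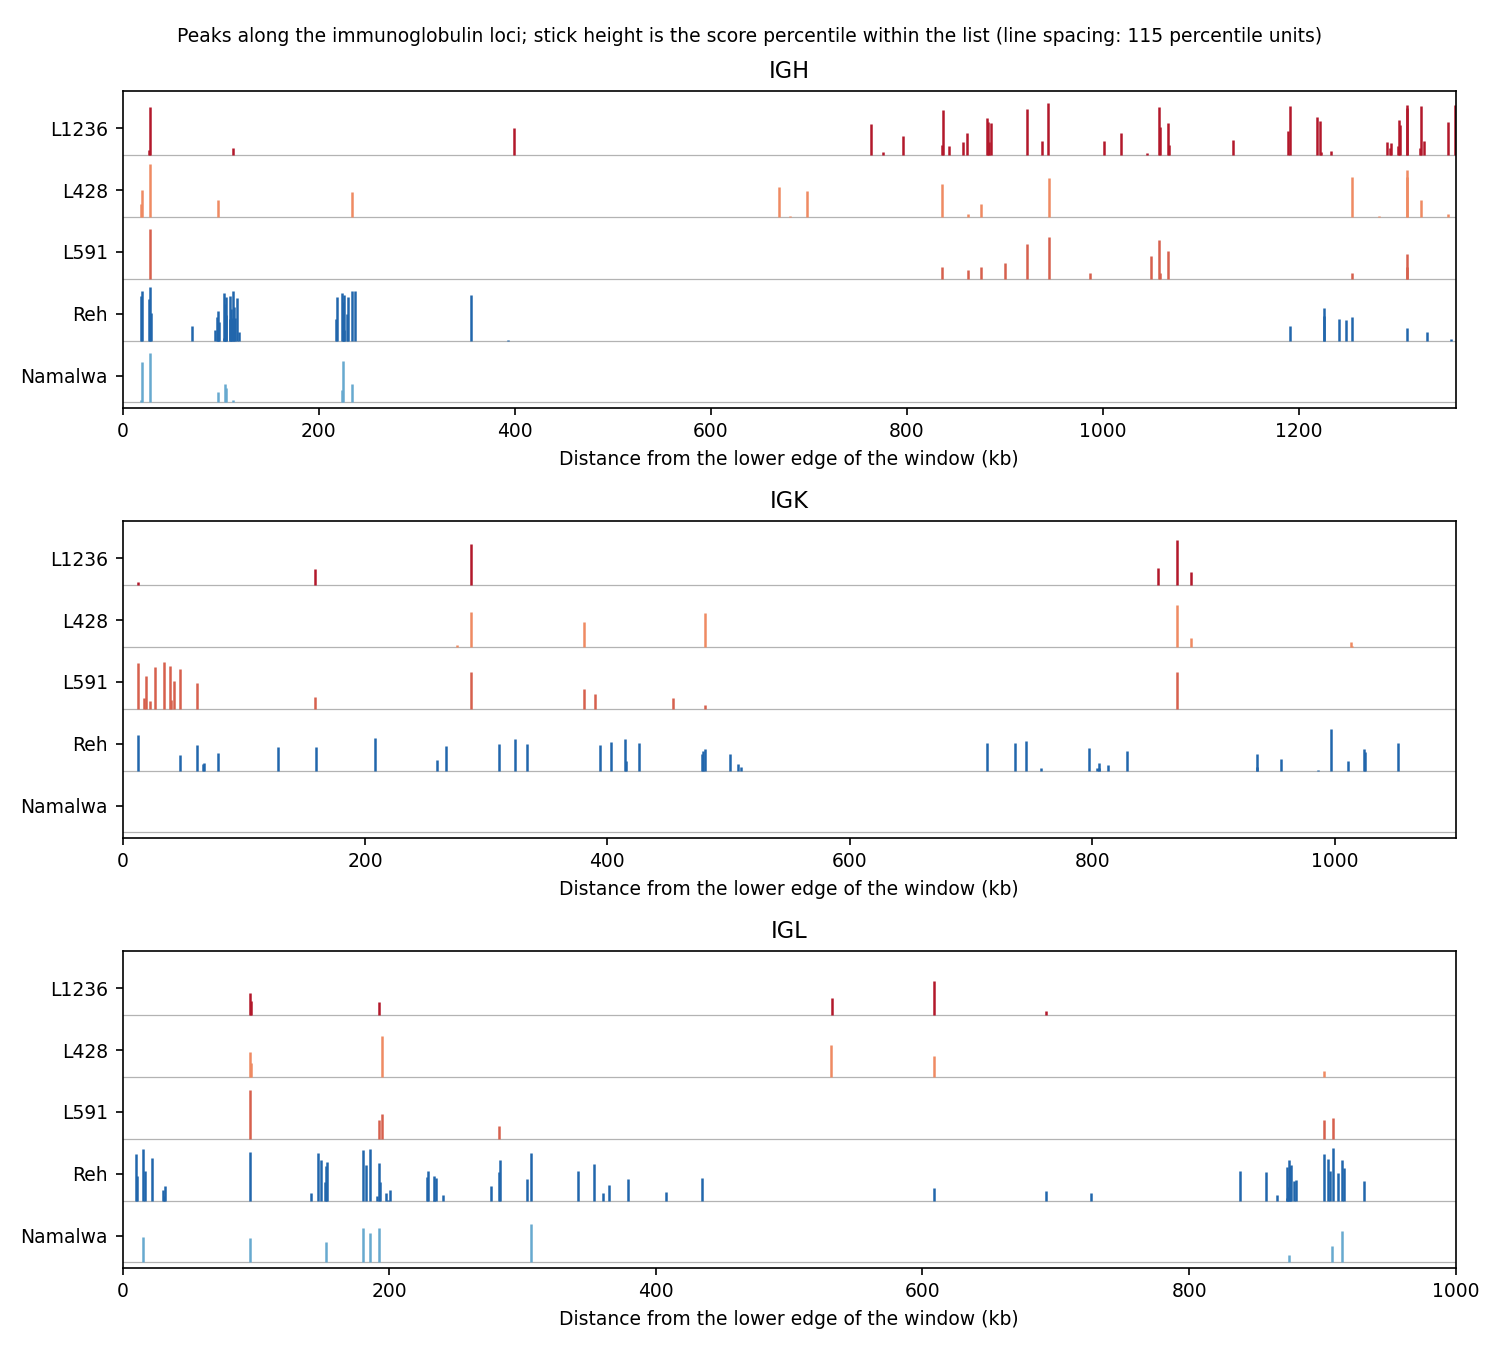
Peaks of each line along IGH, IGK and IGL, by distance in kb from the lower edge of the window; each stick is 1 peak and its height is the percentile of its score within the list of its line. In IGH, 80.4% of Reh peaks and 90.9% of Namalwa peaks lie below the middle of the window, against 6.67% to 33.3% in the Hodgkin lines.

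At the constant region end of IGH, Reh peaks formed 3 dense clusters. Here a cluster is a run of 5 or more peaks of 1 line with gaps of at most 10 kb, a definition chosen after the data had been seen. The longest, from 105094531 to 105119170 (24.6 kb), held 19 Reh peaks with a median score percentile of 48.5 and a highest of 92.3. The next, from 105217621 to 105237340 (19.7 kb), held 10 with a median of 80.3 and a highest of 92.1. The third, from 105018301 to 105029300 held 5 with a median of 83.1. In the cluster of 19, Namalwa had a peak in 4 of the regions, L1236 in 1, L428 in 1 and L591 in none. In the cluster of 10, Namalwa had a peak in 3, L428 in 1, and L1236 and L591 in none. Over the whole Reh list, 18.6% of peaks overlapped a Namalwa peak, 29.3% an L1236 peak, 36.1% an L428 peak and 44.5% an L591 peak. Clusters held 34 of 46 Reh peaks in IGH (73.9%) and 46 of 64 in IGL (71.9%), but 5 of 44 in IGK (11.4%), against 25.7% of the whole Reh list.

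The 4 non-Hodgkin-only regions of IGH all fell in the 2 larger clusters. The strongest in Namalwa, at 105224981 to 105225680, stood at percentile 84.3 in Reh and 76.3 in Namalwa. Those at 105103561 to 105104220 (89.1 and 33.7), 105105471 to 105106270 (80.7 and 26.1) and 105223261 to 105224200 (88.7 and 23.5) ranked high in Reh and in the lower part of the Namalwa list. Among the 3 leading Reh peaks of IGH, those at 105112191 to 105113120 (percentile 92.3) and 105236301 to 105237340 (92.1) also lay in these clusters. The first of these overlapped weak peaks of L1236 and Namalwa, and the other overlapped no peak of another line.

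The third cluster held the only IGH region with a peak in all 5 lines, at 105028081 to 105028820, 28.1 kb from the lower edge of the window. Its percentile was 99.1 in Reh, 97.6 in L428, 93.2 in L591, 92.2 in Namalwa and 89.9 in L1236, and it was the strongest IGH peak of every line except L1236. In the gene order the sequence before IGHA2 holds genes of other kinds, and whether this region belongs to the immunoglobulin genes was not determined. It was also the only L591 peak below the middle of the window.

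**Figure D5:**
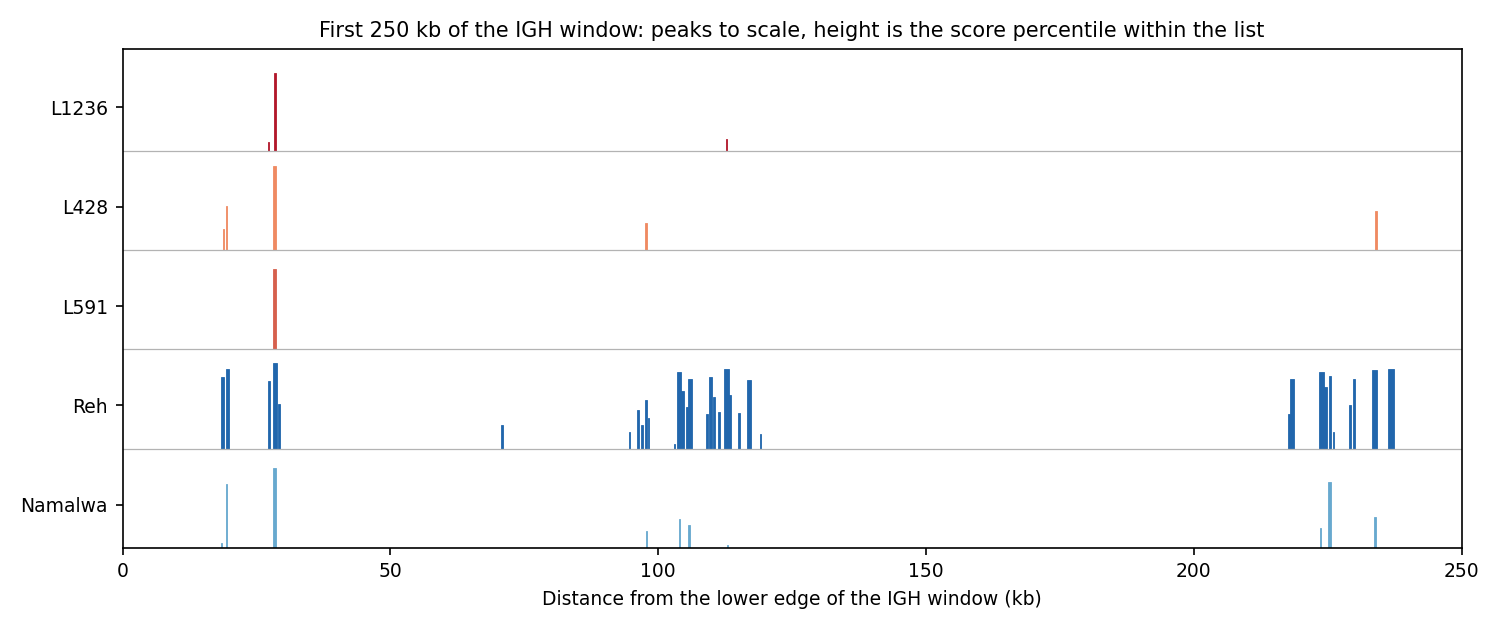
First 250 kb of the IGH window, with peaks drawn to scale by distance in kb from its lower edge and height showing the score percentile within each list. Reh has clusters of 19 and 10 peaks where L591 has none and L1236 and L428 have at most 1 region each, and all 5 lines share the region 28.1 kb from the edge.

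At the V segment end, L1236 had the most peaks. From 105.70 Mb to the upper edge it had 42, L591 had 14, L428 10, Reh 9 and Namalwa 1. The L1236 peaks there had a highest percentile of 97.1, and those of Reh a highest of 60.0. In L1236, 8 of these peaks formed a cluster from 106289571 to 106310960 (21.4 kb, median percentile 39.8, highest 93.0). Clusters held 17.4% of the L1236 peaks in IGH, against 27.9% of its list. Regions of L1236 alone made up 28 of the 92 IGH regions (30.4%, against 19.8% of all regions). The leading L1236 peaks were at 105943951 to 105945140 (percentile 97.1), 106358491 to 106359390 (93.6) and 106309831 to 106310400 (93.0). The last of these overlapped peaks of L428 (86.4), L591 (46.0) and Reh (24.0), while the second was the last listed peak of chromosome 14 and had no counterpart in another line. The L1236 list holds its peaks to a lowest score of 12.0 per bp, against 3.67 to 6.60 in the other lists, and whether the lists were cut at the same threshold is not known.

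The Hodgkin lines shared 4 regions at this end that neither non-Hodgkin line had. These were 4.35% of the 92 IGH regions, a share near the 4.33% of all regions. The strongest, at 105943951 to 105945140, stood at percentile 97.1 in L1236, 78.5 in L591 and 71.7 in L428. The region at 106310511 to 106310960 stood at 88.3, 22.2 and 73.6 in the same order, and that at 105836151 to 105837190 at 83.8, 21.9 and 61.2. The fourth, at 105861721 to 105862090, was weak in all 3 lines (41.9, 16.2 and 4.69).

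In IGK, L591 and Reh had different arrangements. L591 had 11 of its 18 peaks in the first 100 kb, at the end of the constant region, where Reh had 6 of 44, L1236 1 of 6 and L428 and Namalwa none. Of these, 10 formed a cluster from 88912351 to 88947750 (35.4 kb, median percentile 67.7). Such clusters held 25.6% of the L591 peaks in the 3 loci, against 11.9% of its list. Reh had a peak in 2 regions of this cluster, L1236 in 1 and L428 in none. Over the whole L591 list, 43.1% of peaks overlapped a Reh peak, 40.6% an L1236 peak and 55.1% an L428 peak. The strongest peaks of the cluster were at 88933381 to 88934730 (percentile 86.4), 88912351 to 88913600 (84.9) and 88938561 to 88939110 (79.9). The peak at 88912351 was joined by Reh (65.4) and L1236 (5.16), and the other 2 were found in L591 alone. Regions of L591 alone numbered 10 of 62 in IGK (16.1%), a share near the 12.5% of all regions.

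Reh peaks were instead spread over the rest of IGK, with 38 of 44 beyond the first 100 kb. They were weak, with a median percentile of 37.0 and none above 80. The strongest was at 89896791 to 89897170 (76.7), followed by 88912391 to 88912830 (65.4) and 89108231 to 89108650 (61.1). Of the 44 Reh regions, 39 (88.6%) had no peak in another line, against 48.8% over the Reh list. Among the 5760 highest-scoring peaks of Reh, as many as the Namalwa list holds, none lay in IGK, so the absence of Namalwa peaks there does not set Namalwa apart from Reh at that list length.

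The Hodgkin lines shared 2 regions beyond the first 100 kb of IGK, and these were the leading IGK peaks of L1236 and L428. They made up 3.23% of the 62 IGK regions, against 4.33% of all regions. The region at 89769821 to 89770470 had an L1236 peak at percentile 83.1, an L428 peak at 77.7 and an L591 peak at 68.6. That at 89186961 to 89187510 stood at 76.1, 64.5 and 68.7. Neither had a Reh or Namalwa peak.

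Over the full lists nearly all IGL regions had a Reh peak, 64 of 66 (97.0%), against 44.0% of all regions. With each list held to its 5760 highest-scoring peaks, IGL held 10 Namalwa peaks and 9 Reh peaks. L428 and L591 then had 1 each and L1236 none. In the full lists no Hodgkin line had an IGL region of its own (0 of 5 regions in L1236, 0 of 5 in L428, 0 of 6 in L591). Over all regions of each line, such regions made up 48.2% in L1236, 24.7% in L428 and 28.6% in L591. The IGL counts are small and the contrast was not tested. Reh peaks fell into 2 stretches, 40 in the first 400 kb, on the side of the V segments, and 19 in the last 200 kb, on the side of the constant regions. The Hodgkin lines had 3, 3 and 4 peaks in the first stretch (L1236, L428 and L591) and 0, 1 and 2 in the last, and Namalwa had 7 and 3.

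The last 200 kb of IGL held the strongest of the 64 Reh peaks in the locus, at 21607251 to 21608330 (percentile 97.2), overlapped by weaker peaks of Namalwa (30.9) and L591 (37.8). It belonged to a cluster of 7 Reh peaks from 21600711 to 21616180 (15.5 kb) with a median percentile of 74.9. A neighbouring cluster of 10 ran from 21557181 to 21580540 (23.4 kb, median 45.7), where Namalwa had 1 region and no Hodgkin line had any. Over the whole Reh list, 18.6% of peaks overlapped a Namalwa peak. The shares overlapping an L1236, L428 or L591 peak were 29.3%, 36.1% and 44.5%. The non-Hodgkin-only region at 21614611 to 21615220 stood at 74.9 in Reh and 58.1 in Namalwa.

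In the first 400 kb the other leading Reh peaks, at 20885151 to 20886540 (95.8) and 20714911 to 20715890 (95.3), were shared with Namalwa (54.9 and 47.4) and with no Hodgkin line. The same held for regions at 20879501 to 20880930 (93.2 and 64.2), 21006071 to 21006920 (89.0 and 71.0) and 20852181 to 20852570 (64.9 and 38.1). The region at 21006071 contained the highest-scoring Namalwa peak of IGL. The only IGL region of all 5 lines, at 20795251 to 20796260, ranked high in L591 (91.2) and Reh (89.9) and in the middle of the L428 (45.9), Namalwa (45.2) and L1236 (41.5) lists. The leading L428 peak of IGL, at 20894751 to 20895170 (75.5), was shared with L591 alone (45.5), and the leading L1236 peak, at 21308801 to 21309220 (64.1), with L428 (38.8) and Reh (23.2).

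Taken over the 3 loci together, the immunoglobulin peaks were numerous in Reh but not strong for its list. Their median percentile lay between 37.8 (L591) and 45.7 (L428), with 44.1 in Reh, 38.7 in L1236 and 38.1 in Namalwa, below the list median of 50 in all 5 lines. In Reh 23 of 154 (14.9%) ranked above percentile 80, in L1236 11 of 58 (19.0%), in L591 4 of 39 (10.3%), in L428 2 of 32 (6.25%) and in Namalwa 1 of 21 (4.76%), where the list as a whole has 20%. The loci differed in Reh. In IGH its median percentile was 50.6, with 14 of 46 peaks (30.4%) above percentile 80. The median was 48.2 in IGL, with 9 of 64 (14.1%) above 80, and 37.0 in IGK, with 0 of 44. With each list held to its 5760 highest-scoring peaks, Reh kept 24, Namalwa 21, L1236 11, L591 6 and L428 4 immunoglobulin peaks. The order of Reh and Namalwa above L1236, and L1236 above L428 and L591, was thus present at equal list length. Of those 24 Reh peaks, 15 were in IGH, 9 in IGL and none in IGK, whereas L591 kept 3 in IGK.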

How the data were processed

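The submitters' processing notes name Bowtie 1.00 and hg18, and the file columns record reads extended to 146 bp and counted in bins of 10 bp. For the peak caller, threshold and depth, the value is not given in the sources used here. The deposited score is the authors' peak area, with no stated scaling, and was used only as a percentile within a list or, per bp, to describe a list. Scores were divisible by 8.

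Peaks of chromosomes 1 to 22 and X were assigned to a locus by an overlap of 1 bp, and positions are 1-based. Densities count each chromosome to its last listed peak. Exact permutation over the lines served to compare the groups. The loci, lists and comparisons were chosen with earlier results of these data known. Regions named are those of all 5 lines, the Hodgkin-only and the first 10 non-Hodgkin-only regions by lowest percentile, and the 3 leading peaks of each line and locus; the clusters and stretches were chosen after their values were seen. Gene lists and markers were not used for want of an hg18 annotation, and peaks of chromosome Y and mitochondrial DNA were left out. Calculations ran in scipy 1.17.1, pandas 2.3.3 and numpy 2.4.6 under Python 3.11.15, and the functions were tested on simulated lists.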

Additional observations from a re-analysis of the deposited data

How the results depend on the processing

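The group difference kept its direction for IGL, IGH, all 3 loci and the Jaccard index under every alternative run. These covered equal list length, the upper 50% of each list, windows narrowed or widened by 100 kb, peaks joined within 200 bp, and each line left out. Shares were also taken over covered bases and without chromosome X, and the Jaccard index with an overlap of 50% of the shorter peak and with peaks set to 200 bp. No p can fall below 0.1 here, so this says nothing of significance. The IGK difference reversed to 0.0289 percentage points at equal list length, and to 0.0418 without Reh (range with 1 line left out -0.116 to 0.0418). At equal list length there were 0 Hodgkin-only regions, 13 non-Hodgkin-only, 1 of all 5 lines and 26 of 1 line. With the upper 50% there were 3 Hodgkin-only, 6 non-Hodgkin-only, 1 of all 5 lines and 82 of 1 line. These settings have fewer peaks by construction, although the non-Hodgkin-only class went from 11 over the full lists to 13 at equal list length. Shares over all regions were not taken at these settings or with a line left out. The counts therefore do not tell the loci from the lists. With windows narrowed by 100 kb, 0 regions of all 5 lines were left. With 1 line left out, Hodgkin-only regions ranged from 6 to 10 (10 without L591), non-Hodgkin-only from 12 to 132 and regions of 1 line from 70 (without Reh) to 182; the 132 arise without Namalwa, where the class needs a Reh peak only. No paired analysis was possible because the labels give no replicate numbers that pair lines across groups. Counts of peaks are limited by the unknown depth, most of all in Namalwa.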
